A study of Mus musculus with 26 samples.

Results

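The Rtl1-antisense miRNAs are a compact group of imprinted brain miRNAs, both arms of the hairpins miR-431, miR-433, miR-127, miR-434 and miR-136. They were chosen by name as 10 of the 1915 entries in a table of mature miRNA counts, and all 10 had reads and were tested. The counts come from 26 small RNA libraries of CA1, the main output field of the hippocampus, in 3 groups. These were 10 libraries of transgenic mice on Vorinostat, 7 of transgenic mice on vehicle and 9 of wild type littermates on vehicle. The transgenic animals of both treatment groups carried the CamkdeltaC transgene, which stands for a model of heart failure, with a promoter not given in the sources used here. Vorinostat (SAHA), an inhibitor of histone deacetylases, or vehicle was given in the drinking water for 4 weeks from an age of 2 months, to an age of 3 months. Both sexes were used, and the sources used here do not say which library is of which sex or that each library is 1 animal. The p-values therefore measure the spread between libraries.

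The Dlk1-Dio3 domain is imprinted. The paternal copy expresses the protein-coding genes Dlk1, Rtl1 and Dio3, and the maternal copy expresses a chain of noncoding RNAs from which many miRNAs are cut. Rtl1 is a coding gene derived from a retrotransposon, needed in mice for the fetal vessels of the placenta. The hairpins described here lie in a maternal transcript that runs opposite to Rtl1, so each mature miRNA is an exact complement of Rtl1 mRNA and can direct its cleavage, in the manner of a small interfering RNA. Deletion of miR-127 in mice raises Rtl1 and impairs the placenta. In cultured human cells miR-127 is known to repress BCL6, and in mouse sensory neurons miR-431 is known to promote axon growth by repressing Kremen1.

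All 5 hairpins lie on the plus strand of chromosome 12 (GRCm38, the assembly that mm10 denotes), inside the single coding exon of Rtl1 on the minus strand. The annotated coding sequence of Rtl1 runs from 109590172 to 109595403 and is 5232 bases long. Mir431 lies at chr12:109590447-109590537, Mir433 at chr12:109591715-109591838, Mir127 at chr12:109592846-109592915, Mir434 at chr12:109594506-109594599 and Mir136 at chr12:109595327-109595388. They span 4942 bases, and all 10 mature sequences lie within the coding sequence, each with 1 exact complement in the Rtl1 transcript. Both arms of miR-136 are also exact complements of Mir3071, a hairpin annotated on the Rtl1 strand, whose mature miRNAs had no read in the table. A further hairpin, Mir432 (chr12:109594956-109595030), lies on the plus strand between Mir434 and Mir136, also within the Rtl1 coding sequence. It is outside the 10 members, and its mature miRNA had 2 counts in all, both in 1 library.

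**Figure D1:**
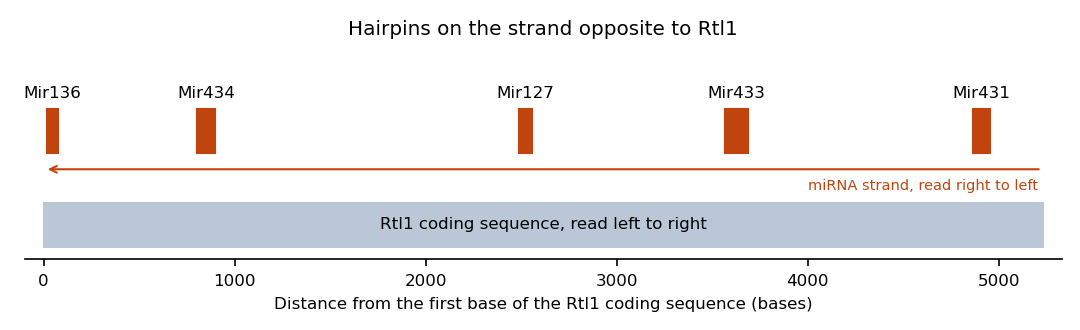
Position of the 5 hairpins of the members (orange boxes) along the Rtl1 coding sequence (blue bar), to scale, in bases from its first base. The hairpins are on the opposite strand, and Mir136 lies nearest the start of the Rtl1 coding sequence and Mir431 nearest its end.

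The mature sequences, from RefSeq (GRCm38.p6), are shown because every later comparison is between these molecules, and because the arms of a hairpin have different seeds. All 10 were matched. The prefix mmu, for mouse, is left out elsewhere. Capitals mark the seed, bases 2 to 8, which governs the choice of ordinary targets.
mmu-miR-431-5p: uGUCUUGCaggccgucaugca
mmu-miR-431-3p: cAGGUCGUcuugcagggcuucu
mmu-miR-433-5p: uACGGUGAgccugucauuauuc
mmu-miR-433-3p: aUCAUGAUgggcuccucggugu
mmu-miR-127-5p: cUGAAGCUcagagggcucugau
mmu-miR-127-3p: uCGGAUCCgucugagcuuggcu
mmu-miR-434-5p: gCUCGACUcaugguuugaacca
mmu-miR-434-3p: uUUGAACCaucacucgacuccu
mmu-miR-136-5p: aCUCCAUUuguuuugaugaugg
mmu-miR-136-3p: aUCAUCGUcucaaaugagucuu
No members share a seed, and no other mouse mature miRNA of the RefSeq table has any of these seeds. The members thus share a locus and a complement in Rtl1 but no seed. GC content ran from 36.4% in both arms of miR-136 to 59.1% in miR-431-3p and miR-127-3p. The arms of miR-434 share the run UUUGAACCA (9 bases), which holds the seed of miR-434-3p and lies at the 3′ side of miR-434-5p. The arms of miR-431 share GUCUUGCAGG (10 bases), which holds the seed of miR-431-5p. In the other hairpins the longest shared run was 4 or 5 bases.

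The matching Rtl1 stretches are shown for the most abundant arms of the hairpins that dominate the counts, 5′ to 3′ on the Rtl1 strand, with the bases that face the seed in capitals.
Rtl1 opposite miR-127-3p (chr12:109592888-109592909): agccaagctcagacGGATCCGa
Rtl1 opposite miR-434-5p (chr12:109594528-109594549): tggttcaaaccatgAGTCGAGc
Rtl1 mRNA was not measured in these small RNA libraries.

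Library totals ran from 3.89 to 15.7 M counts (M, 1e6) with Vorinostat, from 6.01 to 24.8 M in transgenic vehicle and from 0.585 to 17.6 M in wild type vehicle. The column names give a sequencing lane, and each group was spread over both, with 4 Vorinostat, 3 transgenic vehicle and 6 wild type libraries in L001 and 6 Vorinostat, 4 transgenic vehicle and 3 wild type libraries in L002. Wild type vehicle replicate 1, the shallowest library, and Vorinostat replicate 8, the next, held the highest values of miR-127-3p and the lowest of miR-434-3p. Values are therefore given with and without these outlying libraries where they matter. Markers of the labelled tissue were present, with miR-128-3p, a neuronal miRNA, at 260192 ± 52097 counts per 1e6 (CPM) with Vorinostat, 210497 ± 34049.6 CPM in transgenic vehicle and 209559.9 ± 40298 CPM in wild type (SD, n = 10, 7 and 9). Of the 27 miRNAs in 7 marker lists, none was without a read in all libraries. The summed sensory and thalamic list, led by miR-182-5p, ranged from 96.4 to 511 CPM with Vorinostat, from 59.99 to 140.5 CPM in transgenic vehicle and from 50.8 to 1329 CPM in wild type. Its highest values were those of Vorinostat replicate 8 and wild type replicate 1. The summed erythrocyte list, led by miR-486a-5p, was also highest in wild type replicate 1, at 2033 CPM against a wild type median of 649.6 CPM. The oligodendrocyte list (led by miR-219a-2-3p), the microglia and leukocyte list (miR-150-5p), the choroid plexus and ependyma list (miR-204-5p) and the heart and skeletal muscle list (miR-1a-3p) overlapped between all groups. The part of these markers in the members' values was not tested. In bulk tissue, fewer cells of a type and less RNA per cell cannot be told apart.

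The 10 members together held 6.05 ± 1.74% of all counts with Vorinostat (SD, n = 10), 5.03 ± 1.26% in transgenic vehicle (SD, n = 7) and 6.66 ± 4.82% in wild type (SD, n = 9). The medians were 5.54% with Vorinostat, 5.12% in transgenic vehicle and 4.88% in wild type. The wild type spread came from replicate 1, where the members held 18.9% of counts, against 3.25 to 7.29% in the other 8 wild type libraries. miR-127-3p alone supplied 82.4 ± 3.72% of the members' counts with Vorinostat, 79.3 ± 3.22% in transgenic vehicle and 81.2 ± 7.07% in wild type. Most reads of the members in CA1 were thus of 1 of the 10.

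CPM here is a count divided by the library total times its TMM scaling factor, and ranks reads of mature miRNAs of 21 or 22 bases, not molecules. By the median over 26 libraries, miR-127-3p led with 42968 CPM. miR-434-5p followed with 5964 CPM, miR-434-3p with 1438 CPM and miR-433-3p with 1112 CPM. The middle of the order was held by miR-127-5p at 431 CPM, miR-136-5p at 249 CPM and miR-136-3p at 244 CPM. The lowest were miR-431-3p at 48.2 CPM, miR-431-5p at 19.7 CPM and miR-433-5p at 9.04 CPM. Most steps of this order held in at least 23 of 26 libraries. The exceptions were miR-434-3p over miR-433-3p, in 20 of 26, and miR-136-5p over miR-136-3p, in 15 of 26. Whether these neighbours differ was not tested. The most and the least abundant member, miR-127-3p and miR-433-5p, come from hairpins that are neighbours on the same strand.

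The most abundant member, miR-127-3p, ran from 29319 to 107275 CPM with Vorinostat (median 49339.9), from 23338 to 51481 CPM in transgenic vehicle (median 38339) and from 22994 to 222269.9 CPM in wild type (median 34859). The groups overlapped widely. The highest value of all belonged to wild type replicate 1 and the next to Vorinostat replicate 8. Its partner miR-127-5p ran from 233 to 553 CPM with Vorinostat (median 444), from 303 to 547 CPM in transgenic vehicle (median 428) and from 242 to 703 CPM in wild type (median 399). The same libraries, wild type replicate 1 and Vorinostat replicate 8, were the highest, and the group medians lay close together.

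For miR-434-5p the range was 3248 to 11088 CPM with Vorinostat (median 6459), 3324 to 8406 CPM in transgenic vehicle (median 5314) and 3819.6 to 8796 CPM in wild type (median 5832). The Vorinostat group held both the lowest library, replicate 5, and the highest, replicate 9. For miR-434-3p it was 617 to 2477 CPM with Vorinostat (median 1471), 1169.7 to 2337 CPM in transgenic vehicle (median 1499) and 166 to 2553 CPM in wild type (median 1377). Here wild type replicate 1 and Vorinostat replicate 8, the highest libraries of miR-127-3p, were the lowest. Vorinostat replicate 5, the lowest library of miR-434-5p, was the highest of its group for miR-434-3p.

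miR-433-3p had the smallest spread within groups of the 10 members (SD 0.282 in log2 CPM). It ran from 883 to 1347 CPM with Vorinostat (median 1055), from 971 to 1472 CPM in transgenic vehicle (median 1152) and from 620.0 to 1418 CPM in wild type (median 1173). Without wild type replicate 1 and Vorinostat replicate 8 its highest library was 1.67 times its lowest. Its partner miR-433-5p had a median of 105 counts per library and ran from 6.85 to 15.05 CPM with Vorinostat, from 7.65 to 17.4 CPM in transgenic vehicle and from 0 to 10.7 CPM in wild type. The value of 0 is that of wild type replicate 1, where a count of 0 allows up to 6.24 CPM (3 counts, counting error only). The other 25 libraries all had reads of it.

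miR-136-5p ran from 169 to 336 CPM with Vorinostat (median 241), from 222 to 305 CPM in transgenic vehicle (median 271) and from 185 to 453 CPM in wild type (median 239.9). miR-136-3p ran from 149 to 272 CPM with Vorinostat (median 242), from 209.7 to 312 CPM in transgenic vehicle (median 255) and from 99.9 to 294 CPM in wild type (median 233). Over all libraries both arms had their smallest SD in transgenic vehicle. Without wild type replicate 1 and Vorinostat replicate 8, the SD of miR-136-3p was 31.8 CPM in wild type and 33.7 CPM in transgenic vehicle. Every transgenic vehicle library lay inside the range of the remaining libraries for miR-136-5p. miR-431-5p stayed between 13.7 and 26.3 CPM with Vorinostat, 17.9 and 25.2 CPM in transgenic vehicle and 13.9 and 37.4 CPM in wild type. miR-431-3p ranged more widely, from 19.0 to 90.5 CPM with Vorinostat, 17.4 to 77.5 CPM in transgenic vehicle and 25.4 to 93.6 CPM in wild type. The ranges of the 3 groups overlapped for all 10 members.

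**Figure D2:**
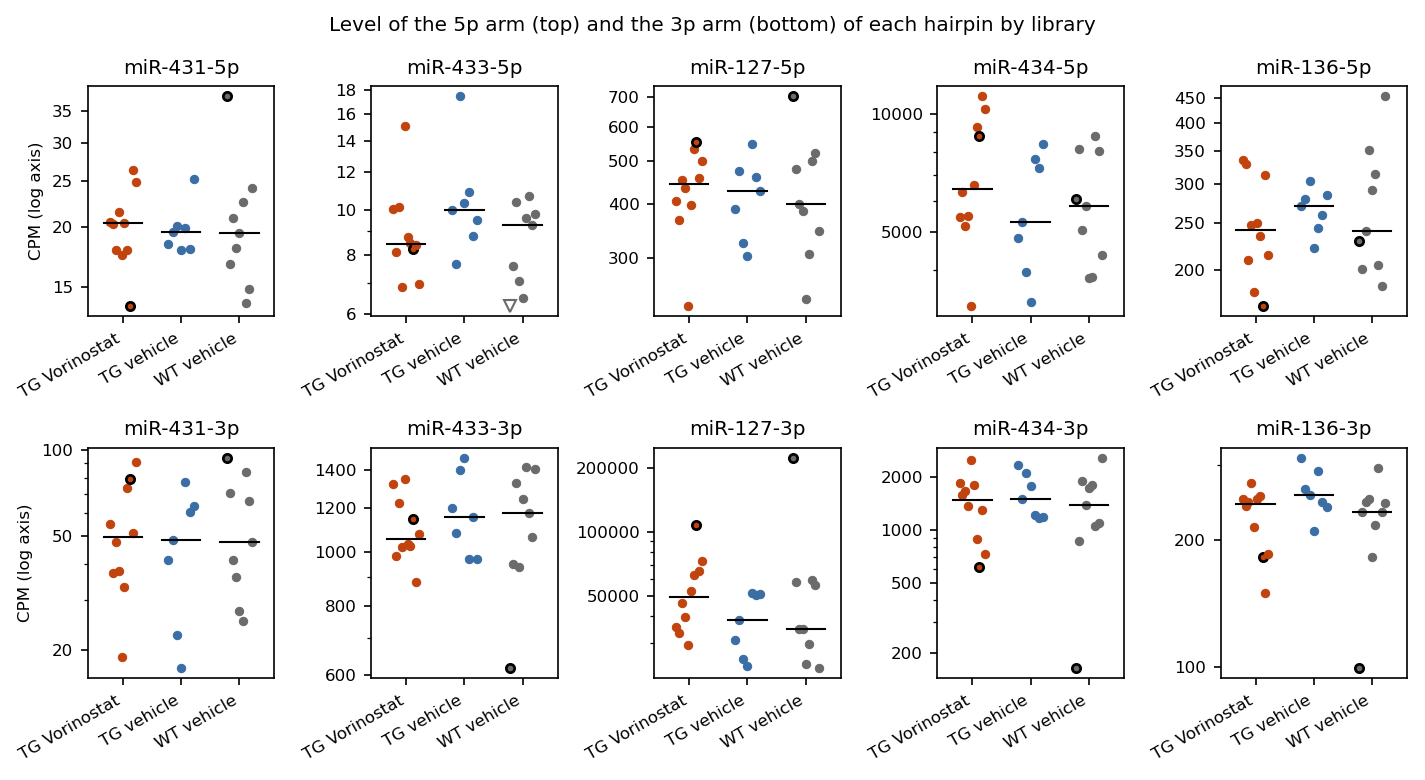
Level of each member in every library, in CPM on a log axis, with the 5p arms above and the 3p arms below. Points are libraries (10 Vorinostat, 7 transgenic vehicle, 9 wild type vehicle), bars are group medians, black outlines mark Vorinostat replicate 8 and wild type replicate 1, and the open triangle marks the count of 0, drawn at its limit of 6.24 CPM. The groups overlap for each member, and wild type replicate 1 is the top of miR-127-3p and the bottom of miR-434-3p.

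The first comparison asked how CA1 miRNAs of transgenic vehicle mice differ from those of wild type vehicle mice. No member passed in edgeR's quasi-likelihood test with Benjamini-Hochberg adjustment over 605 miRNAs, where 0 miRNAs were called (0%) and 13 had an unadjusted p under 0.05 (2.15%), none of them a member. Neither DESeq2 (0 called, 18 unadjusted) nor limma voom (0 called, 7 unadjusted) called any. miR-127-3p averaged 38694 ± 12426 CPM in transgenic vehicle (SD, n = 7) and 60198 ± 62467 CPM in wild type (SD, n = 9). Its log2 difference was -0.64 (SE 0.38, edgeR adjusted p = 0.98), with a 95% interval of -1.43 to 0.15. Without wild type replicate 1 the difference was -0.06, so the value rested on that library. Within lane L001, which holds it, the difference was -0.97 (SE 0.55), and within L002 it was -0.07 (SE 0.41).

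The remaining members differed by -0.18 to 0.34 on the log2 scale between transgenic vehicle and wild type. miR-433-5p was at the upper end, 0.34 (SE 0.24), or 0.18 without transgenic vehicle replicate 5, and averaged 10.6 ± 3.16 CPM in transgenic vehicle against 7.87 ± 3.30 CPM in wild type. miR-136-3p had a difference of 0.22 (SE 0.17), or 0.11 without wild type replicate 1. miR-434-3p had one of 0.21 (SE 0.34), or 0.03 without wild type replicate 1 and -0.24 within L002. miR-431-3p was at -0.18 (SE 0.33), or -0.0052 without transgenic vehicle replicate 6. Over the 10 members 4 differences were positive and 6 negative, with a median of -0.03, against a median of 0.03 over all 605 miRNAs. The narrowest interval was that of miR-433-3p, -0.25 to 0.38, around a difference of 0.06 that was -0.04 without wild type replicate 1.

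The second comparison asked what Vorinostat did in transgenic mice. Again no member passed, in a fit that called 0 of 605 miRNAs (0%), with 21 at an unadjusted p under 0.05 (3.47%) and no member among them. DESeq2 and limma voom called 0, with 26 and 16 unadjusted. miR-127-3p averaged 54485 ± 23630.2 CPM with Vorinostat (SD, n = 10) and 38694 ± 12426 CPM with vehicle (SD, n = 7). This is a log2 difference of 0.49 (SE 0.38, edgeR adjusted p = 0.836) with a 95% interval of -0.28 to 1.26. It was 0.33 without Vorinostat replicate 8, 0.26 (SE 0.57) within lane L001 and 0.54 (SE 0.35) within L002. miR-434-5p, the next in abundance, averaged 7175 ± 2542 CPM with Vorinostat and 5834 ± 1969 CPM with vehicle, a log2 difference of 0.30 (SE 0.24) that was 0.14 without transgenic vehicle replicate 6. The other 8 members lay between -0.22 (miR-433-5p, SE 0.23) and 0.14 (miR-431-3p, SE 0.32), 5 of the 10 positive, with a median of -0.04 against -0.01 over all tested. Without transgenic vehicle replicate 5 the value of miR-433-5p was -0.06, and without transgenic vehicle replicate 6 that of miR-431-3p turned to -0.06.

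No label pairs the libraries, so pairs of Vorinostat and vehicle libraries of transgenic mice were taken from the replicate numbers. That choice rested on correlations in these same counts. The 7 pairs were also compared alone, in a fit added after seeing the data, and its calls rest on that choice. There 5 of 605 tested miRNAs passed, and no member was among them. They were miR-129-5p, miR-182-5p, miR-379-5p, miR-339-5p and miR-29c-3p, each with an edgeR adjusted p of 0.0469. miR-127-3p was higher with Vorinostat in 7 of 7 pairs, by 0.10 to 1.17 on the log2 scale. The share of all miRNAs that were higher in every pair is not given here. The fitted difference of miR-127-3p was 0.53 (SE 0.14), with an edgeR adjusted p of 0.0642 that misses the threshold. miR-434-5p was higher in 5 of 7 pairs (0.30, SE 0.14, edgeR adjusted p = 0.195) and miR-136-3p lower in 6 of 7 (-0.32, SE 0.13, edgeR adjusted p = 0.159). miR-379-5p, which passed there at 0.57 (SE 0.11), is another miRNA of the Dlk1-Dio3 domain, and the others that passed are not.

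The third comparison set Vorinostat-treated transgenic mice against wild type mice on vehicle. No member passed, edgeR called 0 of 605 miRNAs (0%), and 19 had an unadjusted p under 0.05 (3.14%), again no member. DESeq2 called 0 (29 unadjusted) and limma voom 0 (23 unadjusted). All 10 members lay between -0.15 (miR-136-5p, SE 0.17) and 0.26 (miR-434-5p, SE 0.22), and these ends were -0.05 without wild type replicate 9 for miR-136-5p and 0.16 without wild type replicate 6 for miR-434-5p. miR-127-3p was at -0.14 (SE 0.35) with all libraries, at 0.41 without wild type replicate 1, at -0.71 (SE 0.49) within L001 and at 0.47 (SE 0.39) within L002. Its sign in this comparison thus turned without wild type replicate 1, and it also turned in limma voom (0.20) and with the replicate number as a block (0.14).

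**Figure D3:**
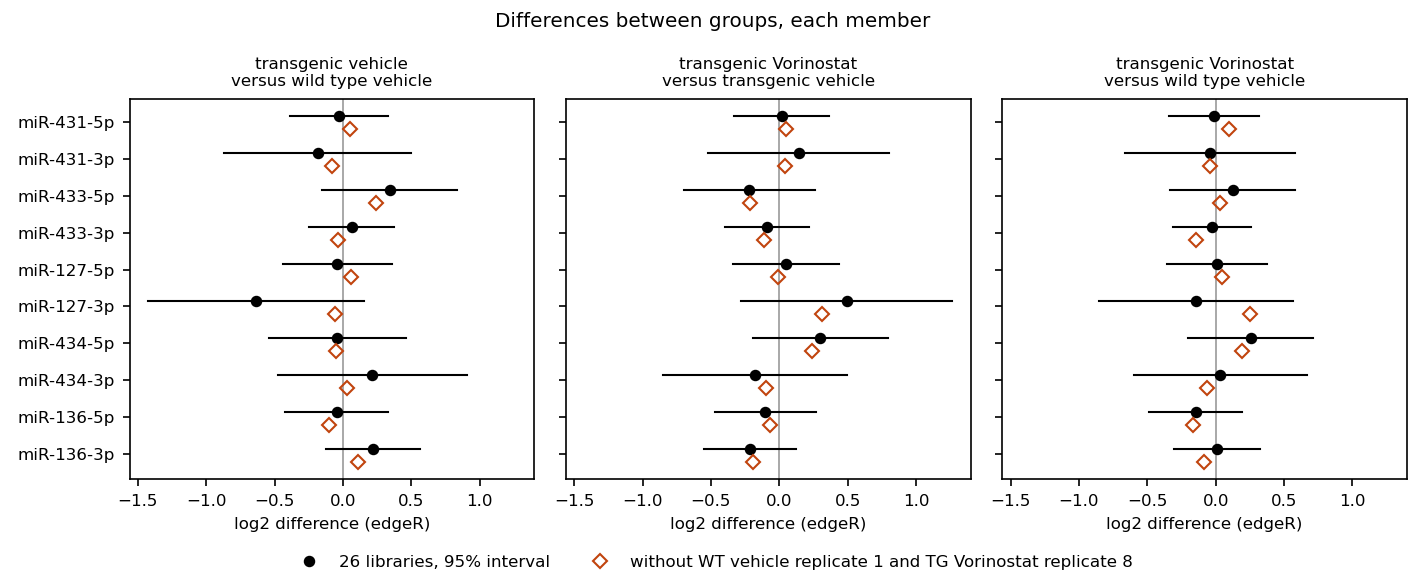
Log2 difference of each member in the 3 comparisons, from edgeR on 26 libraries (black points, with 95% intervals), and with wild type vehicle replicate 1 and Vorinostat replicate 8 left out (open diamonds). All intervals include 0, and the point of miR-127-3p moves most when these libraries are left out.

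The authors also deposited normalized log2 values for 674 miRNAs, by a method not given in the sources used here. If the groups or estimated nuisance factors entered that normalization, p-values computed on these values are not valid, so the calls on them are given as what limma returns and no more. On them the picture differed, and limma called most members in the comparisons with transgenic vehicle. Over all, it called 367 of 674 miRNAs (54.5%) between transgenic vehicle and wild type, and 7 of the 10 members. It called 362 of 674 (53.7%) between Vorinostat and vehicle in transgenic mice, and 8 of the 10 members. Between Vorinostat and wild type it called 6 of 674 (0.890%) and 0 of the 10 members. The members' shares of calls, 70.0% and 80.0%, stand beside backgrounds of 54.5% and 53.7%, and whether they differ from these was not tested. Both comparisons that called many share the transgenic vehicle libraries.

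For miR-127-3p the authors' values were 15.52 ± 0.31 with Vorinostat, 14.52 ± 0.27 in transgenic vehicle and 15.54 ± 0.69 in wild type (SD, n = 10, 7 and 9, log2 scale). They ran from 15.20 to 16.07 with Vorinostat, from 14.24 to 14.97 in transgenic vehicle and up to 17.21 in wild type, with medians of 15.39 with Vorinostat, 14.36 in transgenic vehicle and 15.24 in wild type. All 7 transgenic vehicle libraries lay below all others, which they did not on the counts. The difference was -1.03 (SE 0.23, limma adjusted p = 0.00229) for transgenic vehicle against wild type and 1.01 (SE 0.22, limma adjusted p = 0.00227) for Vorinostat against vehicle. The opposite direction was seen for miR-434-3p, with group means of 10.88 ± 0.54 with Vorinostat, 12.09 ± 0.29 in transgenic vehicle and 10.93 ± 0.95 in wild type. Here the groups overlapped, since transgenic vehicle replicate 9 (11.67) lay below Vorinostat replicate 1 (11.73) and wild type replicate 3 (11.89). Its difference was 1.16 (SE 0.32, limma adjusted p = 0.00604) for transgenic vehicle against wild type and -1.21 (SE 0.31, limma adjusted p = 0.00344) for Vorinostat against vehicle.

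On the authors' values miR-431-3p, miR-127-5p, miR-127-3p and miR-434-5p were lower in transgenic vehicle than in wild type, and miR-433-5p, miR-433-3p and miR-434-3p were higher. With Vorinostat against vehicle, miR-431-3p, miR-127-3p and miR-434-5p were higher, and both arms of miR-433, both of miR-136 and miR-434-3p were lower. miR-431-5p passed in neither comparison. The spread between libraries of a group was smaller in the authors' values than in log2 CPM for 584 of 605 miRNAs, with a median SD of 0.413 against 0.726. For miR-127-3p this SD was 0.471 in the authors' values and 0.741 in log2 CPM. Its mean difference between the authors' value and log2 CPM was -0.10 with Vorinostat, -0.65 in transgenic vehicle and 0.07 in wild type. The shift between scales therefore differed by group, and by library within each group, from -1.32 to 0.05 among the transgenic vehicle libraries. Its source was not tested.

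**Figure D4:**
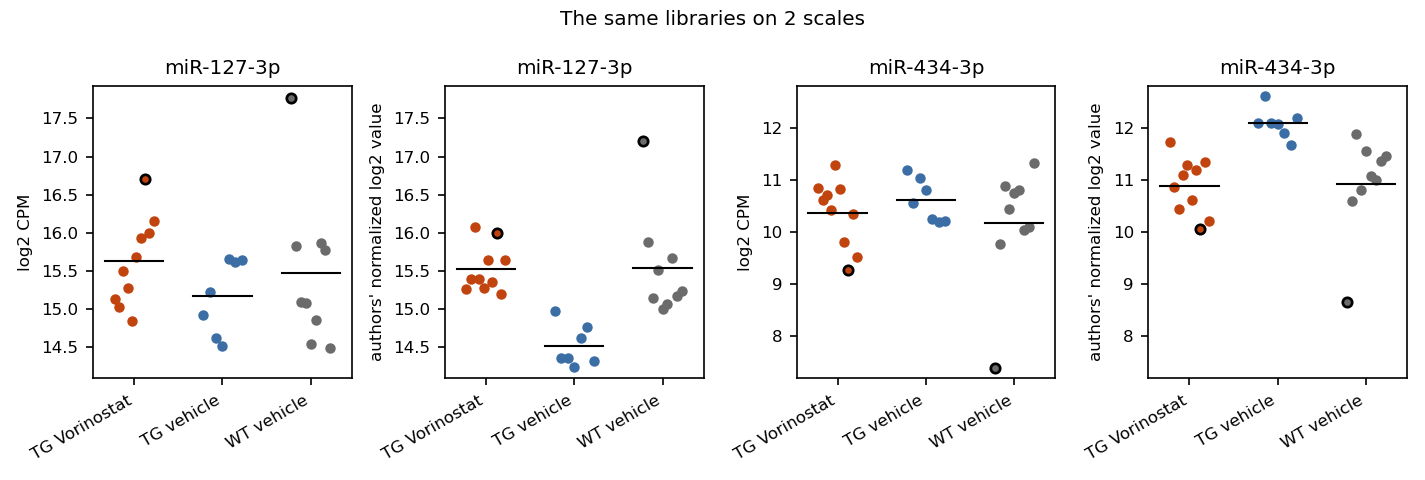
miR-127-3p and miR-434-3p in each library as log2 CPM from the counts (left of each pair) and as the authors' normalized log2 value (right). Points are libraries, bars are group means, and black outlines mark Vorinostat replicate 8 and wild type replicate 1. The 7 transgenic vehicle libraries overlap the others in log2 CPM for both miRNAs. In the authors' values they lie below all others for miR-127-3p, and for miR-434-3p they are the highest except replicate 9, at 11.67, which lies below 1 Vorinostat and 1 wild type library.

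The hairpins differed in the share of reads from each arm, which need not be the share of molecules. miR-127 was read almost wholly as its 3p arm, with 0.854 ± 0.205% of hairpin reads from the 5p arm with Vorinostat, 1.12 ± 0.186% in transgenic vehicle and 0.959 ± 0.312% in wild type (SD, n = 10, 7 and 9). miR-433 was similar, at 0.813 ± 0.136% with Vorinostat, 0.898 ± 0.209% in transgenic vehicle and 0.662 ± 0.273% in wild type. The wild type median of miR-433 was 0.745%, and wild type replicate 1 had a 5p count of 0. miR-434 went the other way, with 81.4 ± 11.3% from the 5p arm with Vorinostat, 76.6 ± 10.4% in transgenic vehicle and 79.9 ± 12.03% in wild type. miR-431 gave 30.1 ± 9.96% from its 5p arm with Vorinostat, 32.7 ± 11.6% in transgenic vehicle and 29.9 ± 11.004% in wild type. miR-136 was nearly even, at 52.2 ± 6.97% with Vorinostat, 50.7 ± 3.49% in transgenic vehicle and 55.0 ± 10.004% in wild type.

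The log2 ratio of 5p to 3p did not pass between groups for any of the 5 hairpins. It was tested with limma over 167 hairpins with both arms past the filter, and it does not depend on the scaling of a library. limma called 0 of 167 (0%) for transgenic vehicle against wild type (2 unadjusted, 1.20%), 0 for Vorinostat against vehicle (3 unadjusted, 1.80%) and 0 for Vorinostat against wild type (6 unadjusted, 3.59%), with no member hairpin among the unadjusted ones. For miR-127 the ratio differed by 0.30 (SE 0.26) for transgenic vehicle against wild type, or 0.11 without wild type replicate 1, and by -0.41 (SE 0.25) for Vorinostat against vehicle. For miR-434 the values were -0.49 (SE 0.57), or -0.13 without wild type replicate 1, and 0.53 (SE 0.56). For miR-433 the genotype value was 0.79 (SE 0.48), and 0.25 without wild type replicate 1, where the 5p arm had 0 counts and the ratio is set by the prior count.

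Within groups, the arms of a hairpin did not always move together from library to library. The arms of miR-434 moved in opposite directions (Pearson r = -0.56, permutation p = 0.0011, adjusted p = 0.00412 over 167 hairpins; Spearman rho = -0.75, permutation p = 4e-05, adjusted p = 3.04e-04; n = 26), in log2 CPM centred on group means. Without wild type replicate 1 and Vorinostat replicate 8 r was -0.84, and without the libraries farthest in the 5p arm, Vorinostat replicates 5 and 9, it was -0.55. Within lane L001 r was -0.48 and within L002 it was -0.80. The permutations treat the libraries as independent, whereas same-numbered Vorinostat and transgenic vehicle libraries resembled each other (r from 0.27 to 0.60 over all tested miRNAs). The permutation p-values of all hairpins may therefore be too small. In 31 of the 167 hairpins (18.6%) the arms were called as moving in opposite directions, and 25 were at or below the r of miR-434, itself included. Without wild type replicate 1 and Vorinostat replicate 8 that number was 4.

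The arms of miR-127 moved together (Pearson r = 0.86, permutation p = 1e-05, the smallest that 100000 permutations can give, adjusted p = 7.59e-05; Spearman rho = 0.90, permutation p = 1e-05, adjusted p = 1.04e-04; n = 26). The value was 0.89 without the libraries farthest in the 5p arm, 0.92 within L001 and 0.92 within L002. Those of miR-433 did so too (r = 0.74, permutation p = 2.9e-04, adjusted p = 0.00131; rho = 0.61, permutation p = 3e-04, adjusted p = 0.00157; n = 26), with r at 0.52 without the farthest libraries (transgenic vehicle replicate 5 and wild type replicate 1, with its 5p count of 0), 0.84 within L001 and 0.42 within L002. A positive relation was called in 59 of 167 hairpins (35.3%). For miR-431 (r = 0.07, adjusted permutation p = 0.782; rho = 0.01) and miR-136 (r = 0.12, adjusted permutation p = 0.722; rho = 0.15) no relation was called, and without the farthest libraries r was -0.04 and -0.01.

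**Figure D5:**
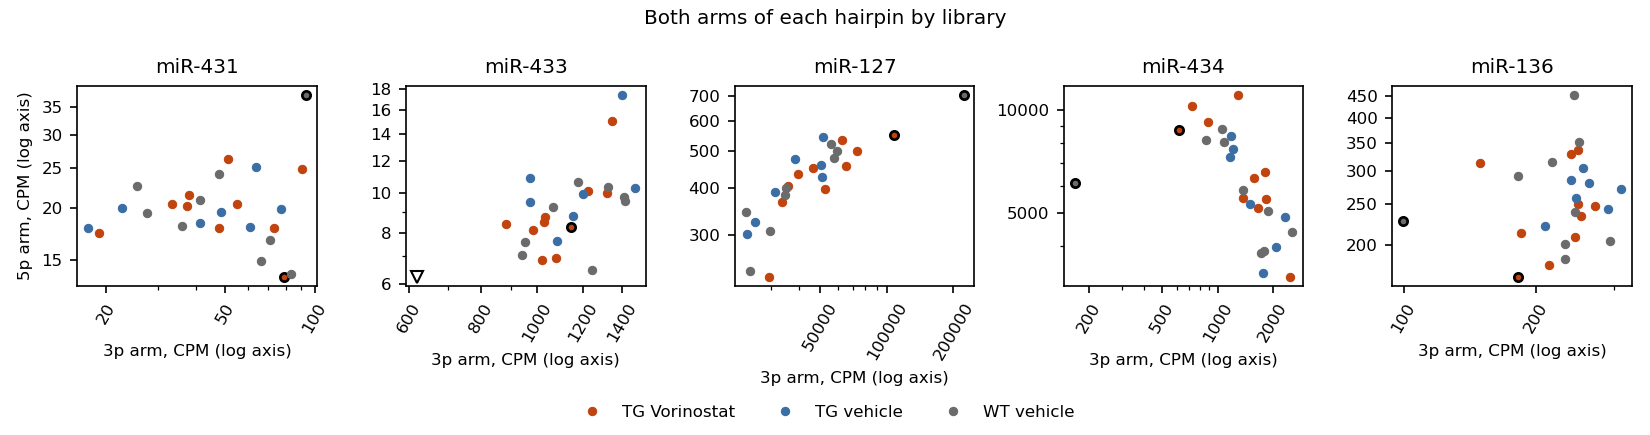
The 5p arm against the 3p arm of each hairpin, in CPM on log axes, over 26 libraries coloured by group, with black outlines for Vorinostat replicate 8 and wild type replicate 1 and an open triangle for the 5p count of 0. The points rise for miR-127 (r = 0.86) and fall for miR-434 (r = -0.56), with no slope called for miR-431 or miR-136.

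Across hairpins some members moved together in sets that did not follow the hairpins. As a description over the same 26 libraries, which share depth and scaling, miR-127-3p had an r of 0.86 with miR-127-5p, 0.78 with miR-431-3p and 0.68 with miR-434-5p, the last being 0.93 without the outlying libraries. It had an r of -0.94 with miR-434-3p and -0.77 with miR-433-3p, and -0.85 and -0.69 without those libraries. These values were centred on group and not on lane. Medians in L001 and L002 were 34859 and 52441 CPM for miR-127-3p and 5314 and 8058 CPM for miR-434-5p. They were 41.2 and 63.5 CPM for miR-431-3p, and 1663 and 1187 CPM for miR-434-3p. The part of lane in these r values was not tested. miR-431-3p had an r of 0.90 with miR-127-5p and 0.85 with miR-434-5p. miR-433-3p and miR-434-3p had an r of 0.77 with each other, or 0.66 without the outlying libraries. miR-136-3p had an r of -0.55 with miR-127-3p over all libraries and 0.03 without the outlying libraries, so that value rested on them. Its r of 0.74 with miR-433-5p, 0.46 with miR-433-3p and 0.64 with miR-434-3p became 0.16, -0.01 and 0.09 without them. miR-136-5p had an r of 0.10 with each arm of miR-433, 0.12 with miR-136-3p and 0.42 with miR-434-3p. With miR-431-5p its r was 0.45, or 0.64 without the outlying libraries. The authors' deposited table of co-expression modules, which is not independent because it comes from these libraries, places miR-431-3p, miR-127-5p, miR-127-3p and miR-434-5p in the blue module, with memberships from 0.713 to 0.965, and the other 6 in the turquoise module. In that deposited table the turquoise memberships ran from 0.710 to 0.984 for both arms of miR-433, both of miR-136 and miR-434-3p, and miR-431-5p had 0.159, below its green membership of 0.249. On the counts miR-431-5p did not follow the turquoise members apart from miR-136-5p. Its r was -0.64 with miR-433-5p, -0.44 with miR-433-3p, -0.31 with miR-434-3p, -0.59 with miR-136-3p and 0.45 with miR-136-5p, against 0.25 with miR-127-3p. Without the outlying libraries these were -0.21, -0.02, 0.14, -0.45 and 0.64, against -0.15. Of the 674 miRNAs in the table, 404 are turquoise (59.94%) and 197 blue (29.23%).

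The miRNAs outside the group whose pattern was most like that of miR-127-3p over the 26 libraries were miR-99b-3p (r = 0.98), miR-106b-3p (r = 0.98), miR-379-5p (r = 0.97), miR-1964-3p (r = 0.96) and miR-151-3p (r = 0.96), of 604 compared. Spearman values were 0.95, 0.93, 0.93, 0.89 and 0.89 in that order. Without wild type replicate 1 and Vorinostat replicate 8 miR-99b-3p still ranked 1 of 604 (r = 0.98), miR-106b-3p ranked 4 (r = 0.96) and miR-379-5p ranked 6 (r = 0.95), while miR-1964-3p ranked 22 and miR-151-3p ranked 25 (r = 0.91 each). Of these, miR-379-5p is a miRNA of the Dlk1-Dio3 domain. The 80 tested miRNAs of that domain outside the members had a median r of -0.53 with miR-127-3p, against -0.38 over all 604. In the domain 36.25% had a positive r, against 39.1% of all. Without the outlying libraries these shares were 47.5% and 48.8%. The median r was then -0.06 in the domain and -0.04 over all, so the lower medians rested on those libraries. miR-99b-3p, miR-106b-3p and miR-1964-3p each have a GC content of 63.6% and miR-379-5p one of 47.6%, beside 59.1% in miR-127-3p itself. Across the 514 miRNAs with a RefSeq sequence (85.1% of those compared), GC content and r with miR-127-3p had a Pearson correlation of 0.33, given as a description because miRNAs are not independent and share the libraries. It was 0.35 without the outlying libraries.

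The rest of the domain was represented by a list of 102 entries from 51 hairpin names, of which 80 were tested. In edgeR 0 of 80 passed in each comparison, with 2, 1 and 1 at an unadjusted p under 0.05 in the order of the comparisons above. The median log2 difference was 0.02 for transgenic vehicle against wild type, against 0.03 over all tested, -0.01 for Vorinostat against vehicle, against -0.01, and 0.05 for Vorinostat against wild type, against 0.01. The most abundant was miR-381-3p, at 8050.1 ± 3555 CPM with Vorinostat, 6288 ± 1888 CPM in transgenic vehicle and 8307 ± 5903 CPM in wild type. It was followed by miR-379-5p, at 4160.0 ± 1732 CPM with Vorinostat, 2955 ± 1031 CPM in transgenic vehicle and 4193 ± 3540.4 CPM in wild type. Their log2 differences were -0.40 (SE 0.33) and -0.50 (SE 0.36) for transgenic vehicle against wild type, and 0.36 (SE 0.32) and 0.49 (SE 0.35) for Vorinostat against vehicle. miR-127-3p was more abundant than any miRNA of this list.

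At the ends of the list, miR-679-3p (0.56, SE 0.44) was highest and miR-679-5p (-1.02, SE 0.62) lowest for transgenic vehicle against wild type. For Vorinostat against vehicle miR-679-5p (0.85, SE 0.59) was highest and miR-376a-3p (-0.78, SE 0.41) lowest. For Vorinostat against wild type the ends were miR-679-3p (0.80, SE 0.41) and miR-485-5p (-0.44, SE 0.44). On the authors' values limma called 58 of 85 domain miRNAs (68.2%), 51 of 85 (60%) and 0 of 85 in the 3 comparisons, beside 54.5%, 53.7% and 0.890% of all.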

How the data were processed

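Small RNA of mouse CA1 was sequenced as single reads of 50 bp with the TruSeq Small RNA kit on a HiSeq2000, per the labels' protocols. Per the submitters' processing notes, FastQC 0.11.5 and the mm10 build were used; no source used here names an aligner or counter. The authors deposited unnormalized counts for mature miRNAs (1915 entries, 526 without a read). They also deposited log2 values for 674 miRNAs, normalized by a method not stated, and module membership scores from -1 to 1. The p-values of membership, deposited by the authors per the file headers, were left out. No member shares identical counts with another entry.

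Groups came from the sample titles. Counts were tested with edgeR 4.0.16 (R 4.3.3), with TMM factors, filterByExpr (minimum count 10, total 15) and 1 model of 3 groups, two-sided, at an adjusted p under 0.05. SE is the size of the log2 difference over the square root of F. Arm ratios (prior count 2) and the authors' log2 values were tested with limma 3.58.1. Arm correlations, added after the levels were seen, used 100000 permutations within groups, with libraries treated as independent. DESeq2 1.42.0, limma voom, other scaling and filters, lane and left-out libraries were alternatives.

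Same-numbered Vorinostat and transgenic vehicle libraries had a positive r in 7 of 7 pairs (0.27 to 0.60 over all tested miRNAs, 6 of 7 in the same lane). Their numbers were therefore taken to pair them, though no label states a pairing. The same-numbered vehicle library was the best match of the Vorinostat library in only 3 of 7 pairs. With wild type the sign of r was mixed. Against transgenic vehicle it ran from -0.45 to 0.46, over 0.1 in 4 of 6 pairs, with 1 best match. Against Vorinostat it ran from -0.51 to 0.58, over 0.1 in 6 of 9 pairs, with 3 best matches. The pairing is thus an assumption drawn from these same libraries.

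All members and marker miRNAs were described by rule, as were the 5 miRNAs most like miR-127-3p and, of the domain list, the 2 most abundant and those with the highest and lowest difference. The miRNAs passing in the 7 pairs were named after their values were seen. The members and lists were chosen with earlier results of these data known. Scripts were tested on simulated data. The limit given for a count of 0 covers counting error only, and the 95% intervals of log2 differences cover the spread between libraries.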

Additional observations from a re-analysis of the deposited data

Results flagged for a closer look

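Values were checked for a library far from the others of its group, relative to the group's range, in 48 sets of a member or hairpin within a group. Chance marks about 5% of such sets, and 9 values stood out. Wild type vehicle replicate 1, the shallowest library with 0.585 M counts (M, 1e6), supplied 6 of them. Its miR-127-3p was 222269.9 CPM, with the next wild type library at 59465 CPM. Its miR-431-5p was 37.4 CPM (18 counts), with the next at 24.1 CPM, and its miR-433-5p was 0 CPM, with the next at 6.48 CPM and a limit of 6.24 CPM from a count of 0. The limit lies close to the next library, so a count of 0 does not place this value apart. The log2 ratio of 5p to 3p was -8.30 for miR-127 there, with the next at -6.91. For miR-433 the ratio was returned as -11.84, a number set by the prior count because the 5p count is 0. At its limit the ratio could be as high as -6.63, above the other wild type libraries (-7.55 to -6.76), so it is no measured departure. The members held 18.9% of its counts, with the next wild type library at 7.29%.

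The other 3 values were in transgenic libraries, and no value of Vorinostat replicate 8 stood out in this check. miR-433-5p was 15.05 CPM in Vorinostat replicate 5, with the next at 10.1 CPM, and 17.4 CPM in transgenic vehicle replicate 5, with the next at 10.9 CPM. miR-431-5p was 25.2 CPM in transgenic vehicle replicate 10, with the next at 20.04 CPM.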

How the results depend on the processing

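The count of 0 miRNAs past the threshold held in each comparison under RLE and upper quartile factors, library totals only, no filter, a mean of at least 10 CPM, DESeq2, limma voom, the replicate block over 26 libraries, lane as a covariate, each lane alone, without each library in turn (0 to 0 calls) and without wild type replicate 1 and Vorinostat replicate 8 together. The exceptions were limma on the authors' normalized values (367 calls for transgenic vehicle against wild type, 362 for Vorinostat against vehicle and 6 for Vorinostat against wild type) and the replicate block in the 7 pairs alone (5 calls for Vorinostat against vehicle, no member). Members passed in 15 cases, all on the authors' values. The cause was not tested. No member passed on the counts. Each member in each refit, the authors' values included, was counted as 1 value. The sign of the difference changed in 49 of 389 values for transgenic vehicle against wild type. It changed in 40 of 399 for Vorinostat against vehicle and 90 of 389 for Vorinostat against wild type. For the arm ratios, counted per hairpin and refit, the sign changed in 0 of 159 values for transgenic vehicle against wild type. It changed in 3 of 159 for Vorinostat against vehicle and 18 of 159 for Vorinostat against wild type, and 0 hairpins passed in any refit. With the authors' values included, miR-127-3p ranged from -1.03 to -0.06 for transgenic vehicle against wild type and from 0.26 to 1.01 for Vorinostat against vehicle. The ends of -1.03 and 1.01 are those of the authors' values. On the counts, leaving out each library in turn gave -0.74 to -0.06 and 0.33 to 0.57. With library totals only, the median of all tested miRNAs for Vorinostat against vehicle was -0.14 on the log2 scale, against -0.01 with TMM, and miR-127-3p was at 0.33.

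Depth limits miR-433-5p most, with a median of 105 counts per library. Wild type replicate 1 had fewer than 100 counts in 5 members.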
